A study of Homo sapiens with 8 samples.

Results

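The genes of cholesterol and fatty acid synthesis were followed in large and small cells of H1, an established line of human embryonic stem cells. The list held 31 genes by symbol: 7 of the mevalonate pathway, 10 of the sterol pathway, 6 regulators and transport genes, and 8 of fatty acid synthesis and desaturation. On the array, 28 of the 31 had at least 1 probe set annotated to that symbol alone, with 64 probe sets between them out of 54613 that were not controls. Genes with such a probe set numbered 19775 in all. A probe set is a group of short probes that together read 1 transcript. Of these, 57 probe sets and 27 genes passed a filter on low intensity, among 14726 genes tested in all. FDFT1, CYP51A1 and FADS1 are not analysed here because no probe set was annotated to them alone. MVD, the decarboxylase of the mevalonate pathway, had 1 probe set, which was under the filter.

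H1 cells were grown over irradiated mouse embryonic fibroblasts on gelatin-coated plates and received no treatment that the labels record. Sorting by forward and side scatter, optical measures that change with cell size and granularity, gave a large and a small fraction. Each fraction was collected in 4 sorts, which the labels call biological replicates, and total RNA of every sort was read on its own Affymetrix array for human transcripts. All 8 sorts came from the same line, so the spread between arrays is a spread between sorts and not between lines. Values below are log2 intensities after quantile normalization, and a difference is small minus large. Levels are not set against each other between genes, since each probe set has its own brightness.

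Cholesterol and fatty acids are both built from cytosolic acetyl-CoA. The mevalonate pathway makes isoprenoid units, the sterol pathway joins them into squalene and closes and trims the ring to cholesterol, and fatty acid synthase, elongases and desaturases make the acyl chains of membrane lipids. The SREBP transcription factors, encoded by SREBF1 and SREBF2, drive most of these genes: SCAP escorts them out of the endoplasmic reticulum for cleavage when sterol is low, and the INSIG proteins hold them back when sterol is high. In proliferating cells these pathways supply new membrane.

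SREBPs bind sterol regulatory elements next to boxes for the factors NF-Y and SP1, so the promoters of 4 members whose values are given array by array below are shown here. They are the 250 bases before the annotated start, from RefSeq on GRCh38.p14, 5′ to 3′ on the strand of the gene. DHCR7 lies on the minus strand (chr11:71448394-71448643), TM7SF2 on the plus strand (chr11:65111622-65111871), SREBF2 on the plus strand (chr22:41832855-41833104) and HMGCS1 on the minus strand (chr5:43313413-43313662). DHCR7 and HMGCS1 each have a further annotated start that is not shown. Capitals mark the NF-Y box, CCAAT or its reverse complement ATTGG, and in SREBF2 also the core of the sterol regulatory element.
DHCR7: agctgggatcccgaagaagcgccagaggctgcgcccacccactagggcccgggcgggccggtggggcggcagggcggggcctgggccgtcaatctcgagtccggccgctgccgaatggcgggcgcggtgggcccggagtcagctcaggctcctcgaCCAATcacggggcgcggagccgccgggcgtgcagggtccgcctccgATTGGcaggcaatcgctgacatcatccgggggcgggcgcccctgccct
TM7SF2: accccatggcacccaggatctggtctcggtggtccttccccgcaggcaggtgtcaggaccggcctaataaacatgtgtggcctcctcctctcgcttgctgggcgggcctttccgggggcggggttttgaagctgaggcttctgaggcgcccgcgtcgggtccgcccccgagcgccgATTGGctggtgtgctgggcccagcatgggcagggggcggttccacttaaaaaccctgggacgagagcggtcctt
SREBF2: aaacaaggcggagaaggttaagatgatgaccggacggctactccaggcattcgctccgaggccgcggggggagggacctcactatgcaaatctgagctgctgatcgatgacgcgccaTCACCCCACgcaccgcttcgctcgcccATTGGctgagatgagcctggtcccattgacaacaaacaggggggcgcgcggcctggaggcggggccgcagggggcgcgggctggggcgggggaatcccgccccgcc
HMGCS1: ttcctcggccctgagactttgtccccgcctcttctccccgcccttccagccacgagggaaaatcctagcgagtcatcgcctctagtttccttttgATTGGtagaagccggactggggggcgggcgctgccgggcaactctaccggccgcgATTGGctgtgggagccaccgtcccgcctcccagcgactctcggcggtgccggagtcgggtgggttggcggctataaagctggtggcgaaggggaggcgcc

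The promoter table held 27 of the 31 genes, with 37 starts, and none for SQLE, ACAT2, FASN or FDFT1. The window searched ran from 250 bases before to 50 bases after each start, on both strands, and none of the motifs contains another. The NF-Y box CCAAT was found in 20 of the 27 genes (74.1%), against 42.5% of the tested genes with a promoter. The SP1 box GGGCGG was found in 25 (92.6%), against 72.4%. The E-box CACGTG was found in 5 (18.5%), against 12.1%. In the 200 bases before the start alone it was found in 3 (11.1%), against 9.49%, so its share there lies near the background. The core of the sterol regulatory element, TCACNCCAC, was found in SREBF2 alone (3.7%), where TCACCCCAC starts 133 bases before the start site, against 1.46% of the tested genes with a promoter. Of the 37 member starts, 64.9% held the NF-Y box, 86.5% the SP1 box, 16.2% the E-box and 2.7% the core. Over all 35116 promoters of the table, counted by start, the shares in that order were 34.6%, 45%, 7.26% and 1.13%. MVD, CYP51A1 and FADS1 are among the 27 genes though they were not tested on the arrays. In the 200 bases before the start alone, 70.4% of the 27 genes held the NF-Y box, against 36.5% of the tested genes. For the SP1 box it was 88.9% against 67.5%, and for the core 3.7% against 1.02%. These matches describe the letters in the windows and were not tested against the intensities.

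Among the 27 tested genes, 2 were lower in small cells at an adjusted p under 0.05 (limma, Benjamini-Hochberg over all 14726 genes), SQLE and DHCR7, and none was higher. The same rule called 1.69% of all genes lower and 0.299% higher, and 1.99% in either direction. The calls are 7.41% of the members, a share that rests on 2 genes. At an unadjusted p under 0.05, 8 members were lower (29.6%) and 2 were higher (7.41%), against 8% and 8.51% of all genes (16.5% in either direction). The small and large arrays did not overlap for 5 lower members (18.5%) and 1 higher member (3.7%), against 5.07% and 4.94% of all genes (10% in either direction), so the higher share lies near the background. The members' median difference was -0.17 and that of all genes 0.05. Of the 27 differences 18 were negative (66.7%, against 44% of all genes). Within that count the signs of IDI1 and HSD17B7 turned on the deposited scaling. That of LSS turned with median centring and with scaling to the 75th percentile. These values are relative to the RNA on each array: fewer cells of a type and less RNA per cell cannot be told apart.

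**Figure D1:**
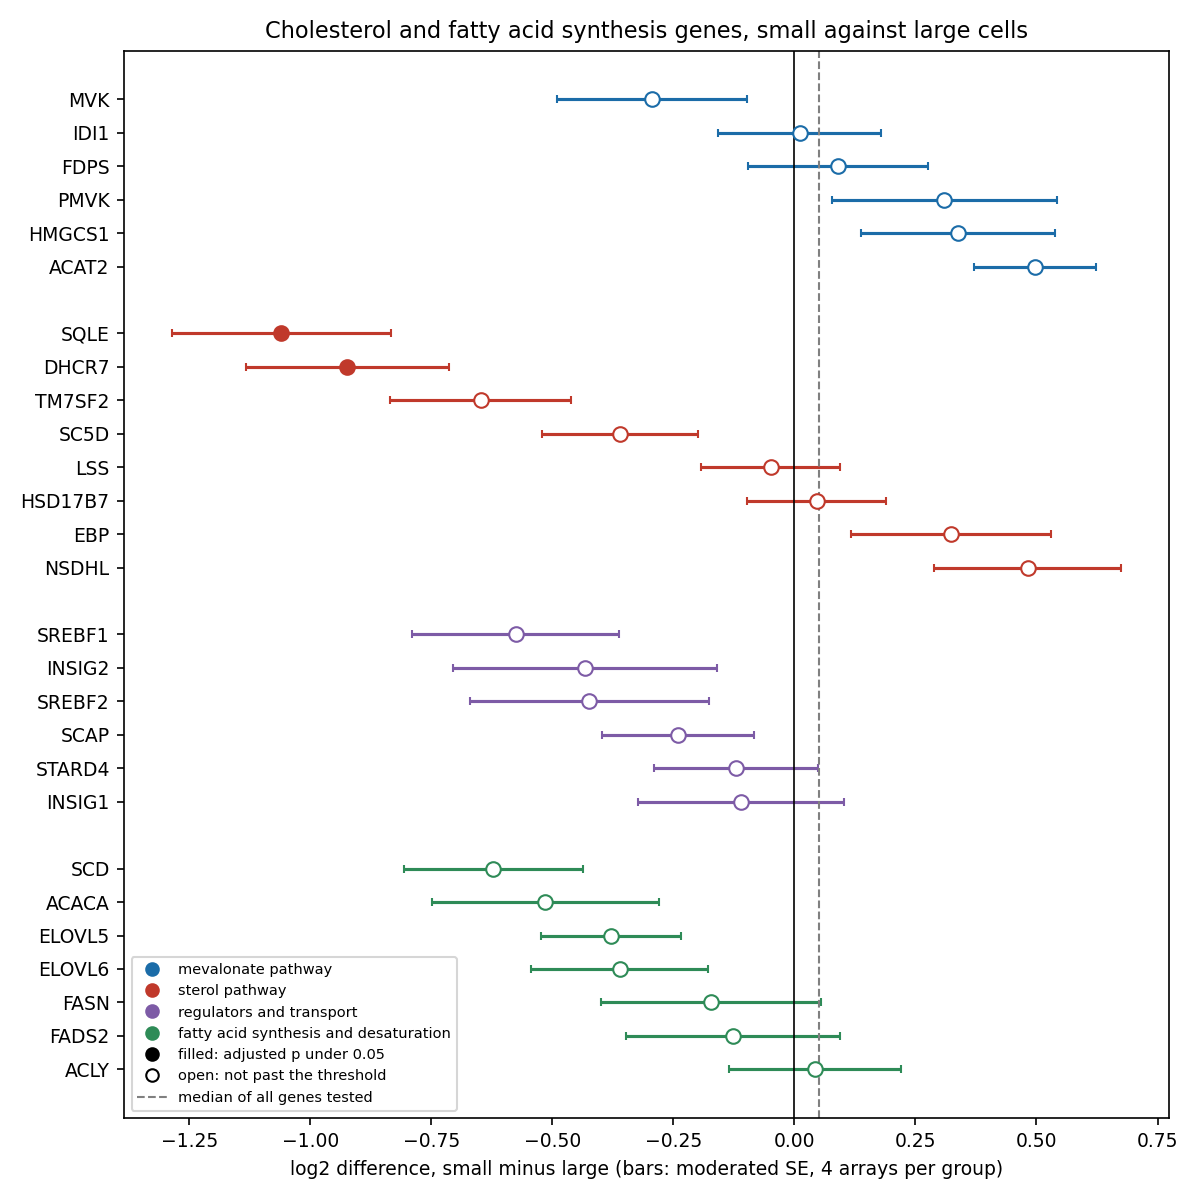
Log2 difference, small minus large, of the 27 tested genes by role (rows), each from 4 small and 4 large arrays. Bars are moderated standard errors, filled points have an adjusted p under 0.05 and the dashed line is the median of all genes at 0.05. SQLE at -1.06 and DHCR7 at -0.92 lie farthest to the left, and ACAT2 at 0.50 lies farthest to the right.

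The arrays carried the markers of pluripotent stem cells. The levels of NANOG, a core pluripotency factor, were 10.73 ± 0.07 in large and 10.67 ± 0.08 in small cells (SD, n = 4), and those of SOX2, its partner, were 10.46 ± 0.13 in large and 10.29 ± 0.08 in small cells. LIN28A, an RNA-binding protein of stem cells, read 11.60 ± 0.24 in large and 11.59 ± 0.17 in small cells, and the DNA methyltransferase DNMT3B read 12.25 ± 0.17 in large and 12.16 ± 0.30 in small cells. All 8 markers of that list passed the filter, with a mean level of 10.83 to 10.91 on the small and 10.89 to 11.03 on the large arrays. Markers of fibroblasts (7 of 8 above the filter, PDGFRB below) averaged 5.72 to 7.24 on small and 6.22 to 7.16 on large arrays. The probes are for human transcripts and the feeders were mouse. Whether feeder RNA added to these levels was not tested. Secreted proteins of liver-type cells (3 of 4 above the filter, ALB below) averaged 4.82 to 6.58 on small and 2.83 to 5.59 on large arrays. TTR, a carrier of thyroid hormone and retinol in blood, read 5.19, 4.96, 4.62 and 2.45 on large arrays 1 to 4, and 6.32, 5.76, 5.24 and 5.22 on small arrays 1 to 4. All its small arrays lay above the large ones, with large array 4 far below the rest, and the difference was 1.33 ± 0.51 (adjusted p = 0.208, limma). The apolipoproteins APOA1 and APOA2 overlapped between groups, with differences of 1.36 ± 0.75 (adjusted p = 0.397) and 1.14 ± 0.54 (adjusted p = 0.314). Large array 4 was the lowest array for all 3 of these genes. Markers of neuroectoderm averaged 4.34 to 5.29 and 4.56 to 4.82, of mesendoderm 4.61 to 5.41 and 4.02 to 5.07, and of trophoblast 4.78 to 5.41 and 5.07 to 5.51, small and large in that order. ZIC1, MIXL1, GATA4, FOXA2 and CGA were under the filter, and the other markers of these lists passed it. The tested marker with the largest difference in either direction was PAX6 for neuroectoderm, at 1.77 ± 0.52 (adjusted p = 0.106, limma). PAX6 read 5.63, 3.22, 2.74 and 3.24 on large arrays 1 to 4, against 5.13 to 5.87 on small arrays. Large arrays 2 to 4 were under the filter level of 3.623. The marker of largest difference was AFP for mesendoderm, at 0.75 ± 0.38 (adjusted p = 0.343). For trophoblast it was HAND1 at -0.38 ± 0.32 (adjusted p = 0.597). Ranges overlapped for all 6 marker lists and no marker was called. The part of these cells in the results below was not tested.

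The sterol pathway held both calls. Of its 8 tested genes, 2 fell (25%, against 1.69% of all genes) and 4 had non-overlapping lower values (50%, against 5.07%). Differences were negative for 5 of them (62.5%, against 44%), and the median difference was -0.20. These shares rest on 8 genes. The tested members act after squalene, from its epoxidation to the final reduction.

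SQLE, squalene epoxidase, adds the oxygen from which the sterol ring is closed and is a rate-limiting enzyme of the pathway. Its brightest probe set read 9.17, 9.66, 9.63 and 10.20 on large arrays 1 to 4, and 8.05, 8.63, 8.95 and 8.79 on small arrays 1 to 4. Every small array was below every large array, with large array 4 the highest and small array 1 the lowest. The means were 9.66 ± 0.42 and 8.61 ± 0.39 (SD, n = 4). SQLE fell by 1.06 ± 0.23 (moderated SE) on the log2 scale, 2.08-fold lower in small cells, with a 95% interval of -1.55 to -0.57 and an adjusted p of 0.0314 (limma). The other 3 probe sets of SQLE gave -0.54, -0.43 and -0.29 and were not called.

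DHCR7, the reductase that completes cholesterol, read 7.10, 7.55, 7.46 and 7.90 on large arrays 1 to 4, and 6.24, 6.63, 6.93 and 6.51 on small arrays 1 to 4. The groups did not overlap, and again large array 4 was the highest and small array 1 the lowest. The means were 7.50 ± 0.33 and 6.58 ± 0.29 (SD, n = 4). DHCR7 fell by 0.92 ± 0.21 on the log2 scale, 1.90-fold lower in small cells, with a 95% interval of -1.37 to -0.47 and an adjusted p of 0.0402 (limma). Its other probe set gave -0.88 ± 0.23, and adjusted over probe sets the values were 0.0505 and 0.0873.

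Both calls sit close to the threshold. With large array 2, 3 or 4, or small array 1 or 2, left out, neither gene was called, and without small array 4 only SQLE was. Over these 8 omissions SQLE ranged from -1.23 to -0.87 (adjusted p 0.0132 to 0.106) and DHCR7 from -1.07 to -0.79 (adjusted p 0.0189 to 0.139, limma). The 3′ minus 5′ signal of the GAPDH and ACTB control probe sets is a measure of RNA integrity, and its groups overlapped. It was 2.91, 1.85, 1.83 and 1.89 on large arrays 1 to 4 and 2.44, 1.94, 2.66 and 2.42 on small arrays 1 to 4. The small arrays all lay above large arrays 2 to 4 and below large array 1. With that measure as a covariate SQLE was -0.96 (adjusted p = 0.0707) and DHCR7 -0.85 (adjusted p = 0.0826), so neither was called. Neither gene passed on the deposited scaling, with median centring, with scaling to the 75th percentile or without the variance trend. Both had negative differences in every setting that measured them, though settings that change only the test cannot turn a sign.

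TM7SF2, a sterol reductase earlier in the same pathway, read 7.26, 7.13, 7.16 and 7.17 on large arrays 1 to 4, and 6.22, 6.45, 6.50 and 6.97 on small arrays 1 to 4. The large arrays lay close together and the small arrays all lay below them, spread more widely. Its difference was -0.65 ± 0.19 with an adjusted p of 0.0995 (limma), so it did not pass the test. It passed without small array 4, the small array nearest to the large ones, at -0.80 and an adjusted p of 0.0476.

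SC5D, a sterol desaturase, read 8.98, 9.02, 8.92 and 9.27 on large arrays 1 to 4, and 8.61, 8.91, 8.34 and 8.88 on small arrays 1 to 4. The groups were apart by a narrow margin, between large array 3 and small array 2. Its difference was -0.36 ± 0.16 (adjusted p = 0.278, limma).

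The other sterol genes showed no common direction. NSDHL, a sterol dehydrogenase of the demethylation steps, differed by 0.48 ± 0.19 (adjusted p = 0.228), and its other probe set by -0.10. EBP, a sterol isomerase, differed by 0.32 ± 0.21 (adjusted p = 0.473), while its other probe sets gave -0.40, -0.28 and 0.17. LSS, lanosterol synthase, which closes the ring, differed by -0.05 ± 0.14 (adjusted p = 0.909), and HSD17B7, a sterol ketoreductase, by 0.05 ± 0.14 (adjusted p = 0.914), signs that turned with the scalings named above. None of these 4 passed the test, and the 95% intervals of LSS and HSD17B7 ran from -0.36 to 0.26 and from -0.26 to 0.36.

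**Figure D2:**
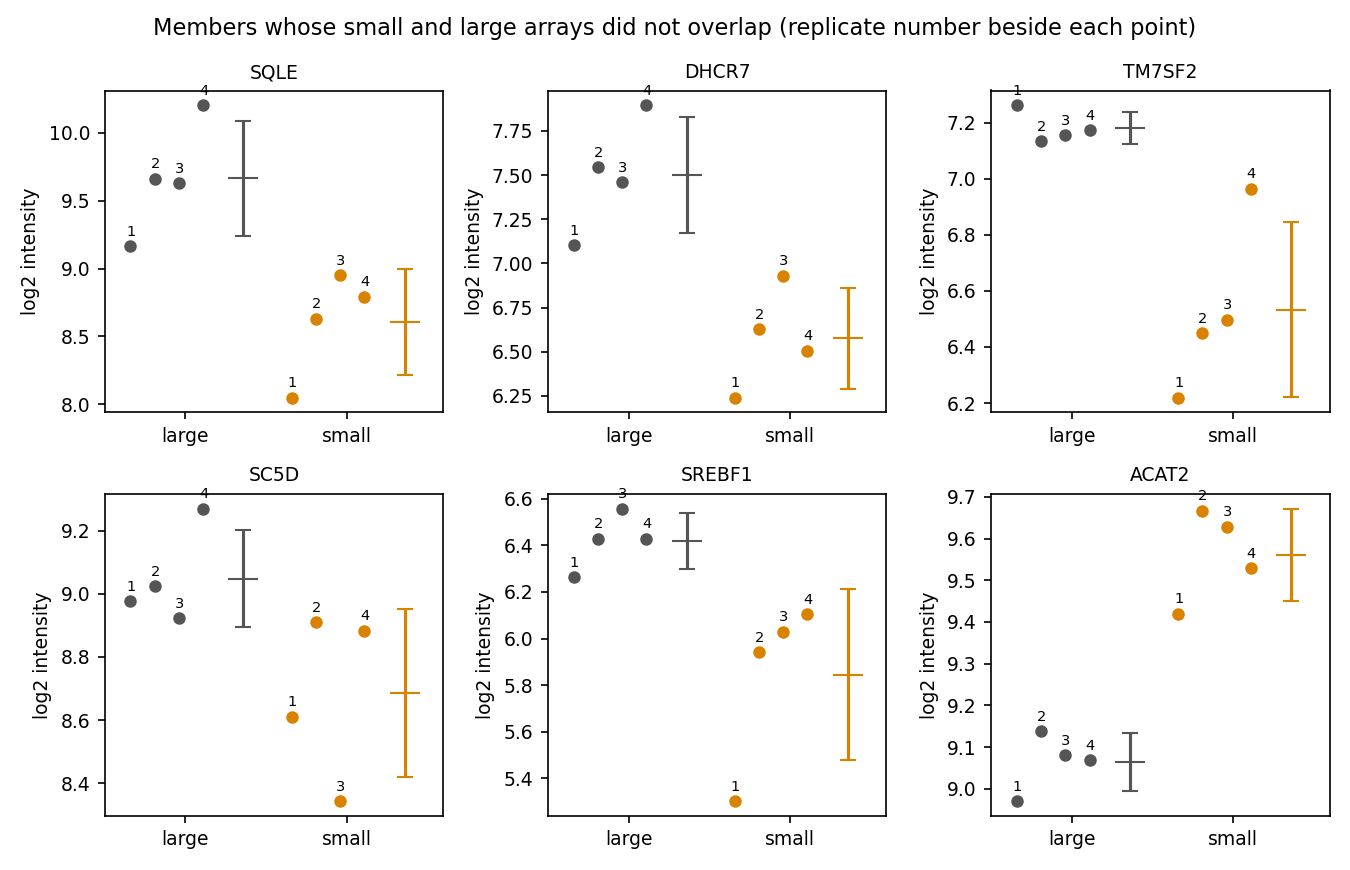
Normalized log2 intensity (vertical axis) of the 6 members whose small and large arrays did not overlap, with each array as a numbered point and the group mean ± SD (n = 4) beside it. SQLE, DHCR7, TM7SF2, SC5D and SREBF1 are lower on all 4 small arrays, and ACAT2 is higher on all 4. Of these only SQLE and DHCR7 passed the test.

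The mevalonate pathway, which feeds squalene, had no call among 6 tested genes. At an unadjusted p under 0.05 (limma) 1 was higher (16.7%, against 8.51% of all genes) and none lower. Of the 6 differences 5 were positive (16.7% negative, against 44% of all genes), and the median was 0.20. The difference between this group and the sterol pathway was not tested.

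ACAT2 is the cytosolic thiolase that joins acetyl-CoA units at the start of the pathway. It read 8.97, 9.14, 9.08 and 9.07 on large arrays 1 to 4, and 9.42, 9.67, 9.63 and 9.53 on small arrays 1 to 4. It was the only member whose small arrays all lay above the large ones, and both groups were tight. Its difference was 0.50 ± 0.13, 1.41-fold, with an adjusted p of 0.0611 (limma), just outside the threshold.

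HMGCS1, the HMG-CoA synthase of the next step, read 8.02, 8.08, 8.42 and 8.82 on large arrays 1 to 4, and 8.65, 8.33, 8.9985 and 8.71 on small arrays 1 to 4. Large arrays 1 and 2 were the lowest and the rest of the large arrays lay among the small ones. Its difference was 0.34 ± 0.20 (adjusted p = 0.434, limma), with a 95% interval of -0.09 to 0.77, and its other, dimmer probe set gave -0.32.

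At the probe sets that stood for them, the kinases and isomerase that follow gave smaller values. MVK, mevalonate kinase, differed by -0.29 ± 0.20 (adjusted p = 0.499). A dimmer MVK probe set, described below, was called at -2.42 (adjusted p = 0.0423 over probe sets, limma). It passed the filter only through its large arrays, so that call adds no support. PMVK, the kinase after it, differed by 0.31 ± 0.23 (adjusted p = 0.555). IDI1, which isomerises the isoprenoid unit, differed by 0.01 ± 0.17 (adjusted p = 0.984), a sign that turned on the deposited scaling. FDPS, farnesyl diphosphate synthase, differed by 0.09 ± 0.19 (adjusted p = 0.86). At the probe sets that stood for the genes, no member of this group other than ACAT2 had non-overlapping arrays. MVD, under the filter and not tested, read 1.54 to 2.52 on the large and 1.85 to 3.66 on the small arrays.

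All 6 genes of the regulators and transport group had negative differences, against 44% of all genes. They ran from -0.58 to -0.11 with a median of -0.33, and none was called. At an unadjusted p under 0.05 (limma) the group had 1 lower gene, SREBF1 (16.7%, against 8% of all genes), and none higher. Its median was negative in all 25 other settings tried, between -0.45 and -0.21. Several of these, such as the replicate block and the robust fit, cannot change the median, and those with an array left out share the remaining arrays.

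SREBF1 encodes the SREBP that mainly drives fatty acid genes. It read 6.26, 6.43, 6.56 and 6.43 on large arrays 1 to 4, and 5.30, 5.94, 6.03 and 6.10 on small arrays 1 to 4. The groups did not overlap, and small array 1 lay well under the rest. Its difference was -0.58 ± 0.21 (adjusted p = 0.194, limma).

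SREBF2 encodes the SREBP that mainly drives cholesterol genes, and its own promoter above holds the only core of the element found. It read 6.24, 6.42, 6.29 and 7.05 on large arrays 1 to 4, and 5.63, 5.87, 6.28 and 6.52 on small arrays 1 to 4. The groups overlapped, with small array 4 above 3 of the large arrays. Its difference was -0.42 ± 0.25 (adjusted p = 0.425, 95% interval -0.96 to 0.11), and its other probe sets gave -0.10 and -0.0031.

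SCAP, the escort protein, read 8.23, 8.01, 7.91 and 8.08 on large arrays 1 to 4, and 7.74, 7.92, 7.60 and 8.001 on small arrays 1 to 4, with overlap between small arrays 2 and 4 and large array 3. Its difference was -0.24 ± 0.16 (adjusted p = 0.485, limma). INSIG1, the retention protein that is itself an SREBP target, read 6.83, 6.96, 7.24 and 7.35 on large arrays 1 to 4, and 7.25, 6.54, 6.82 and 7.34 on small arrays 1 to 4. Its groups overlapped nearly fully, at -0.11 ± 0.21 (adjusted p = 0.847, 95% interval -0.57 to 0.35). INSIG2, its relative, read 5.18, 6.24, 6.20 and 6.06 on large arrays 1 to 4, and 5.53, 5.80, 5.58 and 5.03 on small arrays 1 to 4. Large array 1 lay among the small arrays and the other large arrays above them, and the difference was -0.43 ± 0.27 (adjusted p = 0.464). STARD4, a carrier of sterol between membranes, differed by -0.12 ± 0.17 (adjusted p = 0.779).

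**Figure D3:**
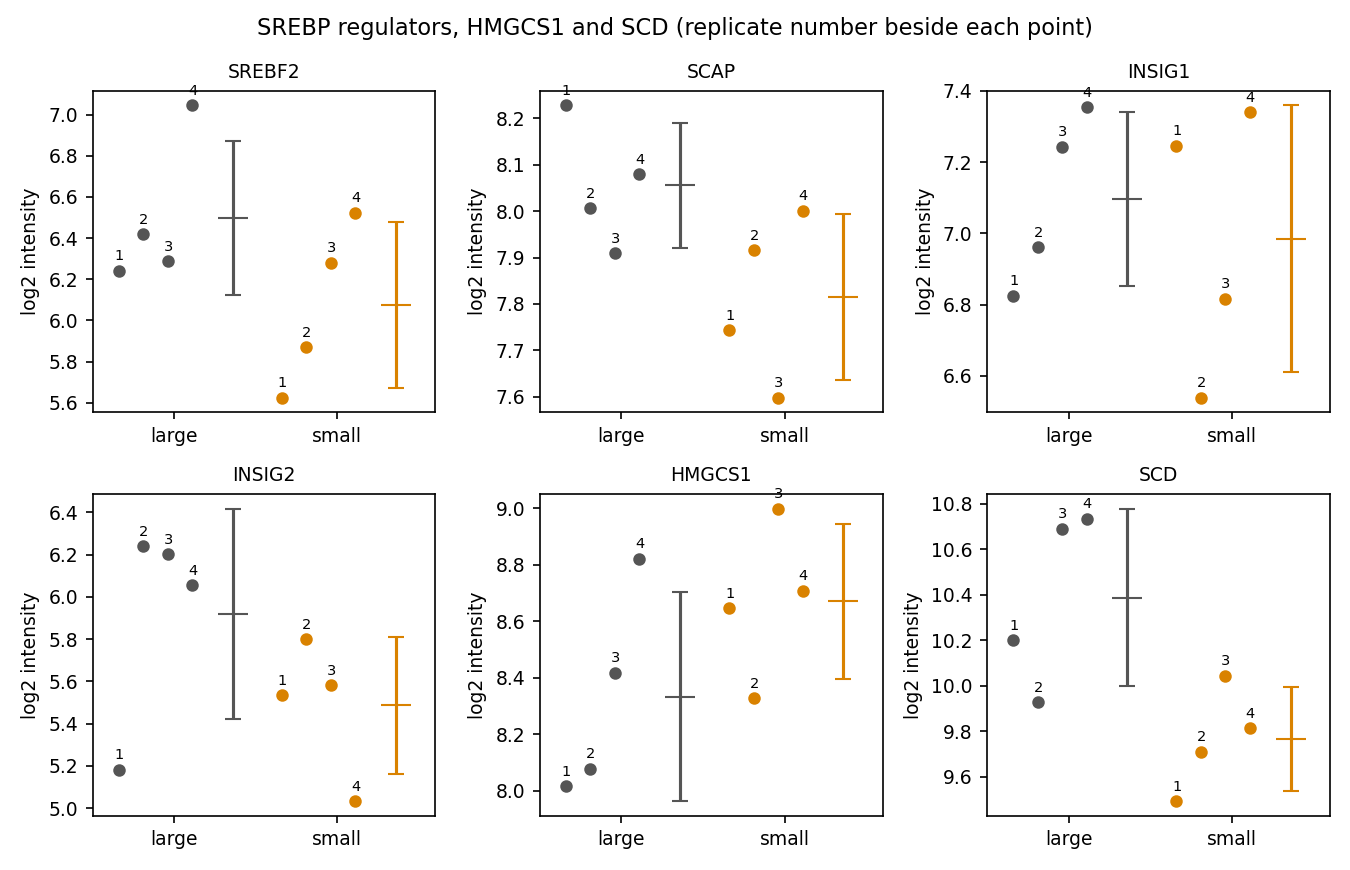
Normalized log2 intensity (vertical axis) of the regulators SREBF2, SCAP, INSIG1 and INSIG2 and of HMGCS1 and SCD, with each array as a numbered point and the group mean ± SD (n = 4) beside it. In all 6 panels at least 1 small array lies within the range of the large arrays, and none of the 6 genes passed the test.

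Fatty acid synthesis and desaturation had no call among 7 tested genes and no gene with non-overlapping arrays. At an unadjusted p under 0.05 (limma) 3 were lower (42.9%, against 8% of all genes) and none was higher. Of the 7 differences 6 were negative (85.7%, against 44% of all genes), and the median was -0.36.

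SCD, stearoyl-CoA desaturase, makes monounsaturated acyl chains. It read 10.20, 9.93, 10.69 and 10.73 on large arrays 1 to 4, and 9.49, 9.71, 10.04 and 9.81 on small arrays 1 to 4. Only small array 3 reached into the large range, above large array 2. Its difference was -0.62 ± 0.18 (adjusted p = 0.106, limma).

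ELOVL5, an elongase of polyunsaturated chains, read 10.49, 10.46, 10.97 and 10.98 on large arrays 1 to 4, and 10.25, 10.28, 10.49 and 10.36 on small arrays 1 to 4. Small array 3 was level with large arrays 1 and 2, and the rest of the small arrays were lower. Its difference was -0.38 ± 0.14 (adjusted p = 0.207, limma).

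ACACA, the acetyl-CoA carboxylase that commits carbon to fatty acids, read 7.997, 8.75, 8.76 and 8.82 on large arrays 1 to 4, and 7.63, 7.93, 8.05 and 8.66 on small arrays 1 to 4. Large array 1 lay among the small arrays. Its difference was -0.51 ± 0.23 (adjusted p = 0.291, limma), and its other probe set gave 0.10.

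The remaining genes of the group were closer to no difference. ELOVL6, an elongase of saturated chains, differed by -0.36 ± 0.18 (adjusted p = 0.349) and FASN, fatty acid synthase, by -0.17 ± 0.23 (adjusted p = 0.764). FADS2, a desaturase of polyunsaturated chains, differed by -0.13 ± 0.22 (adjusted p = 0.83). ACLY, which makes the cytosolic acetyl-CoA that both pathways use, differed by 0.04 ± 0.18 (adjusted p = 0.94), while its other probe sets gave -0.12 and -0.39.

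Across arrays, the median of the members, each taken against its own mean over the 8 arrays, was 0.06, 0.13, 0.0008 and 0.29 on large arrays 1 to 4, and -0.19, -0.02, -0.11 and 0.07 on small arrays 1 to 4. Large array 4 was the highest and small array 1 the lowest, as they were for SQLE and DHCR7. Small array 4 lay above large arrays 1 and 3, so the groups overlapped. For the fatty acid genes alone the median was -0.05, -0.08, 0.43 and 0.40 on large arrays and -0.35, -0.25, -0.03 and -0.17 on small arrays. Large arrays 3 and 4 stood above all others there, and small array 3 lay above large arrays 1 and 2.

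Probe sets of the same gene share their RNA and are not replicates, and they did not always agree in sign. Of 57 tested probe sets 40 were negative (70.2%, against 47.6% of all probe sets). Called were 2 lower (3.51%) and none higher (limma, adjusted over 32768 probe sets), against 1.3% and 0.198% of all probe sets (1.5% in either direction). At an unadjusted p under 0.05, 11 were lower (19.3%) and 2 higher (3.51%), against 8.53% and 6.73% of all probe sets. The calls were the brightest probe set of SQLE and a dim one of MVK. The MVK one averaged 2.86 on the small arrays, under the filter level, and 5.28 on the large arrays. It was tested only because the large arrays raised its mean, so its call adds no support to the count. The MVK probe set read 5.26, 5.90, 4.597 and 5.35 on large arrays 1 to 4, and 2.13, 2.39, 4.56 and 2.36 on small arrays 1 to 4. Small array 3 was level with large array 3, while the other small arrays were below the filter level of 3.623. Its difference was -2.42 ± 0.54 (adjusted p = 0.0423, limma), whereas the brighter MVK probe set that stood for the gene gave -0.29. Among genes with several tested probe sets, all were negative for SQLE (4), DHCR7 (2), INSIG1 (3), ELOVL6 (3), SREBF2 (3) and MVK (2).

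**Figure D4:**
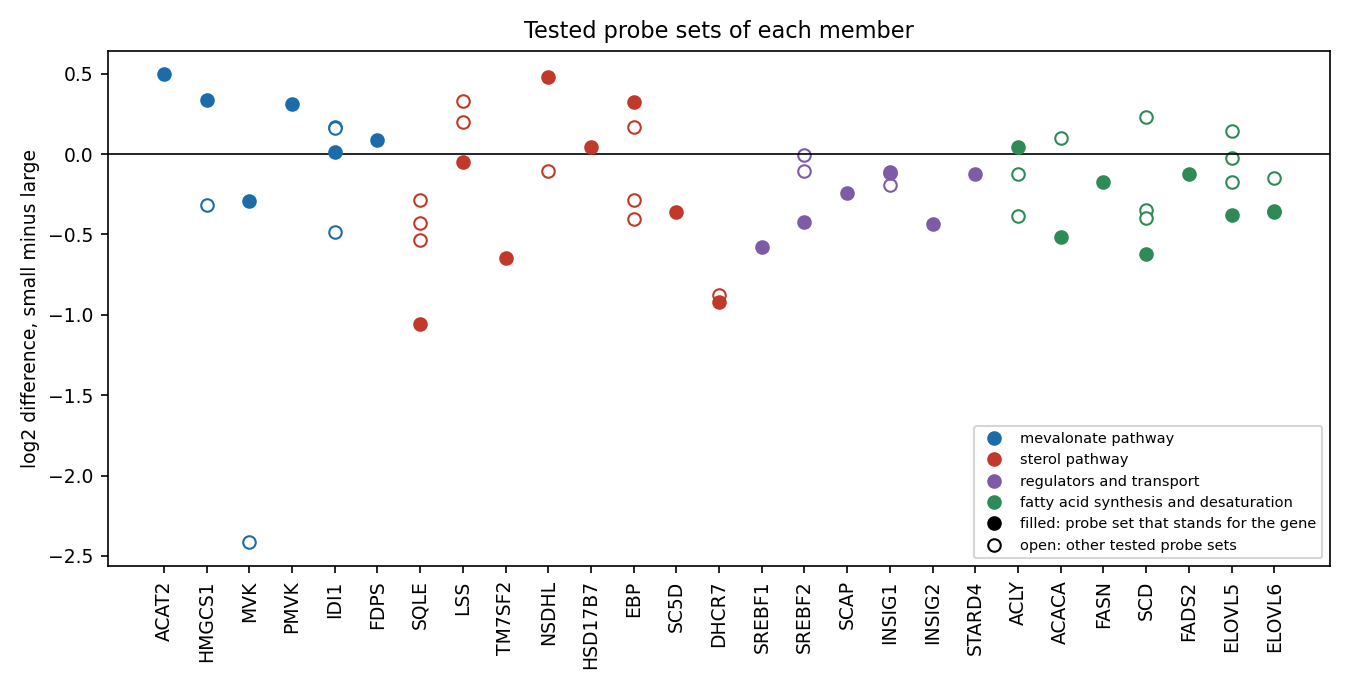
Log2 difference, small minus large (vertical axis), of each tested probe set by gene (horizontal axis). Filled points are the probe sets that stand for a gene, those with the highest mean, and open points are the others. The open MVK point at -2.42 lies below all others, and for HMGCS1, NSDHL, EBP, LSS, IDI1, ACLY, ACACA, SCD and ELOVL5 the points fall on both sides of 0.

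Genes of neighbouring lipid pathways were taken from a list of 53, of which 49 were tested. Of these 4 fell in small cells (8.16%, against 1.69% of all genes), and none was called higher. At an unadjusted p under 0.05 (limma) 13 were lower (26.5%) and 4 higher (8.16%), against 8% and 8.51% of all genes, so the higher share lies near the background. The median difference was -0.32, and 34 of the 49 were negative (69.4%, against 44% of all genes). The isoprenoid branches, which draw on the mevalonate pathway, had 9 tested genes, no call, 7 positive differences and a median of 0.14. SREBP processing and sterol handling had 15 tested genes with 2 calls (13.3%), 13 negative differences (86.7%) and a median of -0.37. The acyl-CoA, elongation and complex lipid genes had 25 tested with 2 calls (8%), 19 negative differences (76%) and a median of -0.38.

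MBTPS2, the site-2 protease that makes the second cut releasing SREBPs, read 7.31, 7.44, 7.52 and 7.96 on large arrays 1 to 4, and 6.69, 6.40, 6.60 and 6.95 on small arrays 1 to 4. The groups did not overlap, and large array 4 was the highest. MBTPS2 fell by 0.90 ± 0.19 on the log2 scale (adjusted p = 0.0317, limma). NPC1, which moves cholesterol out of lysosomes, read 7.46, 7.92, 7.55 and 7.75 on large arrays 1 to 4, and 6.62, 6.97, 6.73 and 7.08 on small arrays 1 to 4. Again every small array was below every large array. NPC1 fell by 0.83 ± 0.18 on the log2 scale (adjusted p = 0.0317).

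HACD3 and HSD17B12 carry out the dehydration and the ketoreduction of the elongation cycle that follows the elongases. HACD3 read 11.26, 11.10, 10.998 and 11.11 on large arrays 1 to 4, and 10.37, 10.41, 10.39 and 10.79 on small arrays 1 to 4. The groups did not overlap, and small array 4 lay apart from the other small arrays. HACD3 fell by 0.63 ± 0.12 on the log2 scale (adjusted p = 0.0236, limma). HSD17B12 read 10.28, 10.04, 10.16 and 10.28 on large arrays 1 to 4, and 9.64, 9.58, 9.40 and 9.70 on small arrays 1 to 4, again without overlap. HSD17B12 fell by 0.61 ± 0.12 on the log2 scale (adjusted p = 0.0254). With each of the 8 arrays left out in turn, MBTPS2 and NPC1 were each called 2 times (without large array 1 or small array 4), HACD3 3 times (also without small array 3) and HSD17B12 4 times (also without small array 3 or large array 2).

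**Figure D5:**
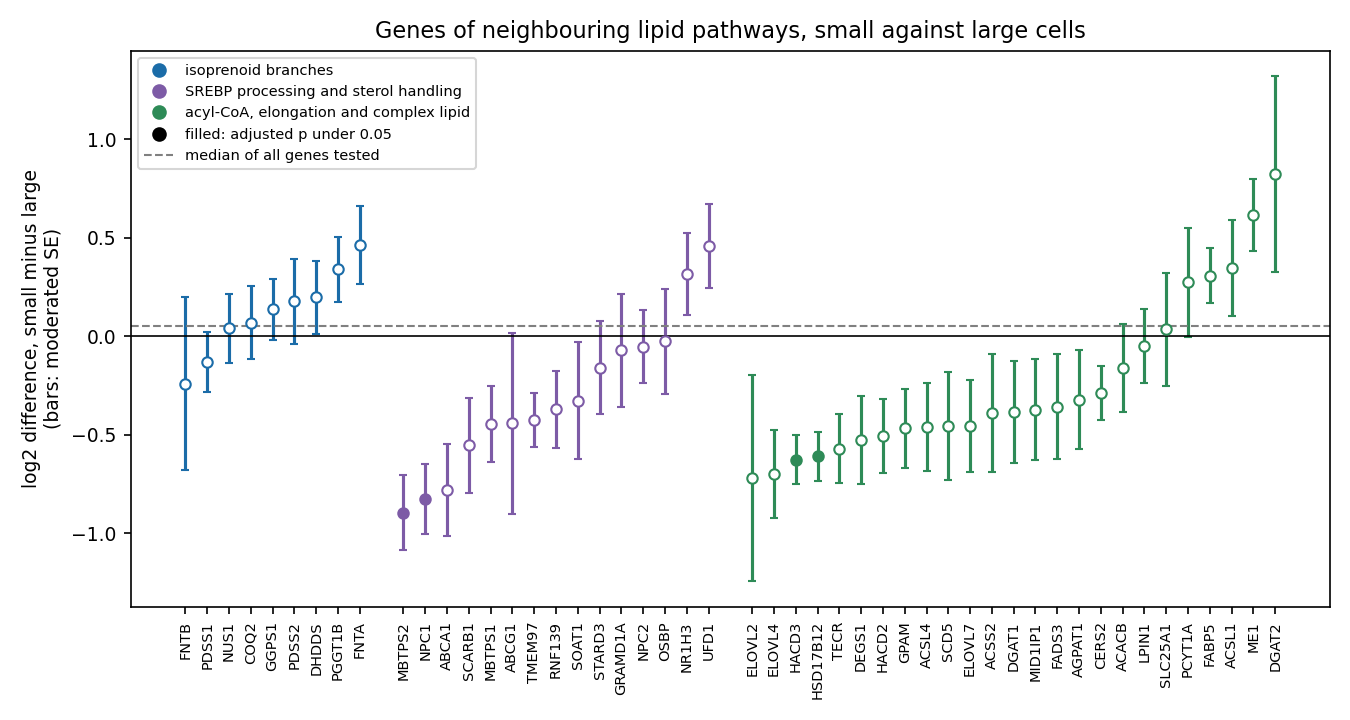
Log2 difference, small minus large (vertical axis, bars are moderated SE), of the 49 tested genes of neighbouring lipid pathways (horizontal axis). MBTPS2, NPC1, HACD3 and HSD17B12 are the filled points, between -0.90 and -0.61, and the isoprenoid branches lie mostly above 0.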

How the data were processed

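RNA of 4 large and 4 small sorts was measured on 1-colour arrays. The deposited values are linear intensities per probe set and array. Per the series' design text, the scanner software was GCOS and the authors combined arrays in Rosetta Resolver (version 7.1); the program and scaling behind the deposited intensities are not stated there. The 75th percentile of intensity ran from 41.9 to 106 over the arrays.

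Here 1.813 (the 10th percentile) was added before log2, which understates changes of dim genes, and arrays were quantile normalized. Control probe sets (62) were removed, and a probe set was tested if it averaged above 3.623, the 40th percentile, which kept 32768. By the platform annotation 41091 probe sets had a single symbol, 1801 had several and 11721 had none; 41037 of the single symbols were matched by gene ID and updated. The probe set with the highest mean stood for a gene. Suffixes _s_at and _x_at mark probe sets that can bind several transcripts.

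The test was limma (version 3.58.1, R 4.3.3), two-sided with a variance trend, Benjamini-Hochberg over all genes or probe sets and a threshold of 0.05. In simulated data with 50 genes lowered at each size, it called 2 at 0.58 on the log2 scale. At sizes of 1, 1.5 and 2 it called 13, 24 and 36. A gene that was not called is therefore not shown to be unchanged. The number of arrays limits precision: the median standard error was 0.235. Members, lists and alternatives were chosen with earlier results of these data known. Values by array are given for members that were called or did not overlap, for the SREBP regulators, for the 2 members of smallest p in each role, for called neighbouring genes and, chosen after its values were seen, for ACACA and the called MVK probe set.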

Additional observations from a re-analysis of the deposited data

Results flagged for a closer look

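In 62 groups of 4 arrays, those of the genes given above, the highest or lowest array was checked against the other 3, and 3 groups had an array far from the rest (gap over range above Dixon's 95% critical value). Chance gives about 1 in 20 groups. PMVK on small array 3 was at 5.89, with the other small arrays between 6.45 and 6.51 (gap over range 0.896). ACACA on large array 1 was at 7.997, with the other large arrays between 8.75 and 8.82 (0.919). HACD3 on small array 4 was at 10.79, with the other small arrays between 10.37 and 10.41 (0.92). The 3 values fell on 3 different arrays.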

How the results depend on the processing

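Depth is set here by 4 arrays per group, and intensities near background carry no order. Of 27 tested members, 20 kept their sign in each of the 25 other settings that measured them, and 7 turned at least 1 time. The setting without _x_at or _s_at probe sets measured only 17 members. Settings that change only the test, such as the replicate block and the robust fit, cannot turn a sign. The cause of each change below was not tested.

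The count of called members, 2 in the comparison above, was 0 on the deposited scaling, with median centring, with scaling to the 75th percentile, without the variance trend and with the 3′ to 5′ covariate. It was 1 (SQLE) without the filter or with plain probe sets alone (no _x_at or _s_at), 6 with array weights (ACAT2, DHCR7, ELOVL5, SCD, SQLE and TM7SF2) and 4 at an adjusted p under 0.1. Called probe sets, 2 above, numbered 0 without the trend, with the covariate, with median centring or as scaled by the depositors, 1 with 75th percentile scaling or no filter, 6 with array weights and 5 at 0.1. Called neighbouring genes, 4 above, numbered 0 without the trend, with median centring or as scaled by the depositors, 2 with 75th percentile scaling or the covariate, and 7 with large array 1 and small array 3 both left out. Leaving out each array in turn gave 0 to 2 members, 0 to 3 probe sets and 0 to 6 neighbouring genes. Over all genes the count of 293 (249 lower, 44 higher) became 0 under the same 3 settings, 824 with array weights, 593 at 0.1, 155 with the covariate, 776 with both arrays left out, and 62 to 553 with each array left out; with 75th percentile scaling it was 148 lower and 62 higher.

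The adjusted p of SQLE ran from 0.00201 to 1 and that of DHCR7 from 0.00823 to 1 over the settings other than leaving out an array (limma). With the mean of all its probe sets SQLE was -0.58 (adjusted p = 0.231), and MVK -1.35 (adjusted p = 0.0306, against a range up to 1). That MVK mean includes the dim probe set that passed the filter only through its large arrays. The members' median was -0.30 on the deposited scaling, where that of all genes was -0.05, and -0.29 with plain probe sets. The sterol median was -0.12 with either median centring or 75th percentile scaling, and 0.14 with plain probe sets, a setting that drops DHCR7 and leaves 4 of its genes; the mevalonate median there was -0.10.

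Signs turned for IDI1 (-0.036 on the deposited scaling, -0.048 with array weights, -0.037 with mean probe sets, -0.485 with plain probe sets), HSD17B7 (-0.030 on the deposited scaling), LSS (0.0204 with median centring, 0.0185 with 75th percentile scaling, 0.16 with mean probe sets), EBP (-0.049 with mean probe sets) and ACLY (-0.12 with array weights, -0.16 with mean probe sets, -0.22 with both arrays left out). With each array left out in turn, IDI1 ran from -0.094 to 0.14, HSD17B7 from -0.0062 to 0.10, LSS from -0.084 to 0.0043, ACLY from -0.11 to 0.16, FDPS from -0.036 to 0.26 and INSIG1 from -0.23 to 0.038.

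The labels do not say that equal replicate numbers share a culture or day. Deviations of equally numbered arrays correlated at 0.11, 0.13, 0.23 and 0.01, and those of unequal numbers from -0.18 to 0.11. Small arrays 1 to 3 correlated best with the large array of their own number, and small array 4 with large array 2. The fibroblast markers COL3A1, DCN and LUM were highest on arrays 1 and 2 and lowest on array 4 in both groups. COL1A1, COL1A2, POSTN, THY1 and PDGFRB did not show that order in both groups. Whether equal numbers share a culture was not tested. The labels give no pairing, so the main fit used none. With the replicate number as a block, 4 members (SQLE, DHCR7 and SCD lower, ACAT2 higher), 6 member probe sets and 753 genes were called.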
